A study of Mus musculus with 16 samples.

Results

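Ank1, Sptb, Epb42, Slc4a1, Add2, Rhag, Rhd and Kel encode proteins of the red cell membrane, its skeleton and its blood group antigens. They were chosen by name as 8 of the 55291 gene symbols in the deposited tables, and 8 of 8 passed the filter on low counts that left 18745 genes. The RNA came from cell suspensions of the spleen. Male C57BL/6 mice were given imiquimod, an agonist of Toll-like receptor 7, every day as a 62.5 mg dose of 5% cream on shaved back skin, a mouse model of psoriasis. The 8 groups were PKR knockout on days 0, 1, 2 and 5 and wild type on the same days, PKR being the kinase encoded by Eif2ak2 that double-stranded RNA activates. Each group had 2 libraries, 16 in all, and each library pooled the spleens of 2 mice, so n = 2 libraries per group throughout. Mice of day 0 had no cream, and no group had cream without imiquimod: an effect of imiquimod cannot be told apart from one of handling, of sampling day or of the cream base. Which exons of Eif2ak2 the knockout lacks is not given in the labels. Suspensions of every group were passed through a 70 µm mesh and treated with red cell lysis buffer, so that the libraries describe the cells left after lysis.

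Red cells keep their shape through a spectrin skeleton that ankyrin, adducin and other adaptors tie to membrane proteins, chief among them the anion exchanger band 3. Precursors in bone marrow and, in mice, in the red pulp of the spleen make the RNA of these proteins as they mature, and red cells lose their RNA after losing the nucleus. Several of the membrane proteins carry blood group antigens in humans. In bulk RNA, more cells of a type and more RNA per cell cannot be told apart, which holds for every level below.

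Sequence before the transcription start was at hand for 6 of the 8 genes, Sptb, Epb42, Add2, Rhag, Rhd and Kel, in the RefSeq table for build GRCm38.p6. Each window spans 250 bases before to 50 after the start annotated in RefSeq. The form that GATA-type factors bind was searched on both strands: the letters GATA, with A or T before them and A or G after them. They stood in 6 of 6 of these windows, against 29.8% of the 32851 windows in the table. The letters CCNCNCCC, the form bound by factors of the KLF family, were in 3 of 6 windows, against 49.5% of all. The 250 bases before the start are shown for Rhag, Rhd and Kel, the genes whose match lay closest before the RefSeq start, a choice made after the matches were seen. Capitals mark the match, written as it reads on the gene's strand, so that the Rhag match is the reverse complement of TGATAA. It begins 31 bases before the start of Rhag (chr17:40810899-40811148, plus strand) and 43 before that of Rhd (chr4:134864286-134864535, plus strand). Kel (chr6:41704326-41704575, minus strand) had matches at 56 and 19 bases before its start.
Rhag: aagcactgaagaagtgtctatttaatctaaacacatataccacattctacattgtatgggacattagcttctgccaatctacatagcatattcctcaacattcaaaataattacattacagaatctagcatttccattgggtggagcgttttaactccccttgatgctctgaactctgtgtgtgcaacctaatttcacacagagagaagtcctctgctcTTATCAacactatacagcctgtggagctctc
Rhd: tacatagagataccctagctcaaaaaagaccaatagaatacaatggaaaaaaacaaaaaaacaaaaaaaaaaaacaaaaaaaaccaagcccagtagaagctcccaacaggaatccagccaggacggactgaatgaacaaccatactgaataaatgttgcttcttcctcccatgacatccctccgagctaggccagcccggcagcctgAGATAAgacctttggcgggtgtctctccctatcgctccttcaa
Kel: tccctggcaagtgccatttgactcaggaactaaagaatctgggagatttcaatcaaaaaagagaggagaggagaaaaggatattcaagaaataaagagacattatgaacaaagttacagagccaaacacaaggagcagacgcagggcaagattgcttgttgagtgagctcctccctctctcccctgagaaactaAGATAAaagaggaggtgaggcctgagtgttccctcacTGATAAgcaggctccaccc
In Epb42 and Add2 the match lay 226 and 234 bases before the RefSeq start, and in Sptb 12 bases after it. The transcript whose levels are given below did not always begin there. Relative to the RefSeq start it began at -195 in Epb42 (upstream) and at 524 in Sptb (downstream). In Add2, Rhag, Rhd and Kel it began at -23 to 23. Distances, and the choice of genes shown, would thus differ with that start, most for Epb42 and Sptb. A match is a run of letters, and binding was not measured.

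Totals ran from 35026754 to 67333830 fragments per library. Levels are adjusted FPKM: fragments per kilobase of 1 transcript per gene, set relative to the library's total after TMM scaling, with factors of 0.933 to 1.20. Changes are log2 values from edgeR's quasi-likelihood test on the fragment counts, with one fit for all 8 groups and Benjamini-Hochberg adjustment over 18745 genes, and a gene is said to have risen or fallen at adjusted p under 0.05. Eif2ak2 stood below wild type in 7 of the 8 knockout libraries. It had 2.88 and 3.57 adjusted FPKM in the knockout on day 0, against 5.77 and 6.17 in the wild type. On day 2 it had 11.0 and 4.99 in the knockout, against 7.60 and 9.85 in the wild type. The first of these goes against its label, and results that rest on the library labelled KO day 2 replicate 1 are given with and without it. Of spleen cell markers, those of B cells had a summed level of 380.0 to 755.0 adjusted FPKM over 5 genes in the 16 libraries.

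All 8 genes rose by day 5 in both genotypes, to a height at which Slc4a1 alone averaged 429.7 ± 80.3 adjusted FPKM in the knockout and 233.6 ± 45.2 in the wild type (SD, n = 2). On day 0 it averaged 15.5 ± 5.75 in the knockout and 13.5 ± 11.1 in the wild type. Together the 8 transcripts took 0.307% and 0.403% of all fragments in knockout libraries of day 5, and 0.196% and 0.233% in those of the wild type. On days 0 to 2 their share was between 0.000576% and 0.0178% in the 12 libraries of both genotypes, and the lower limit was 0.0010% without the library labelled KO day 2 replicate 1. Day 5 against day 0, 8 of 8 rose in the knockout, where 22.8% of all tested genes did, and 8 of 8 in the wild type, where 21.5% did. The knockout changes ran from 4.29 (Epb42) to 5.23 (Ank1) and ranked 113 to 281 among the 18745 genes. Wild-type changes ran from 3.73 (Rhd) to 4.41 (Add2), with ranks of 130 to 275. No gene of the 8 had a day 5 library of either genotype at or below any library of an earlier day. The size depended on the day 0 libraries: the knockout changes were 3.86 to 5.03 without the first and 4.74 to 5.60 without the second, and the wild-type changes 3.07 to 3.79 and 5.34 to 5.97. Fitted on the day 0 and day 5 libraries alone, the wild-type changes kept their size, from 3.73 to 4.42, but 0 of 8 passed, with adjusted p of 0.0797 to 0.123. In a separate fit on the knockout libraries of these days 7 of 8 passed, and Rhag had an adjusted p of 0.0665. Adjusted p there went down to 1.75e-151 (Ank1), against 0.00112 for Ank1 in the fit of all groups. Values so low rest on a spread estimated from few libraries, and the 7 passes carry little weight.

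**Figure D1:**
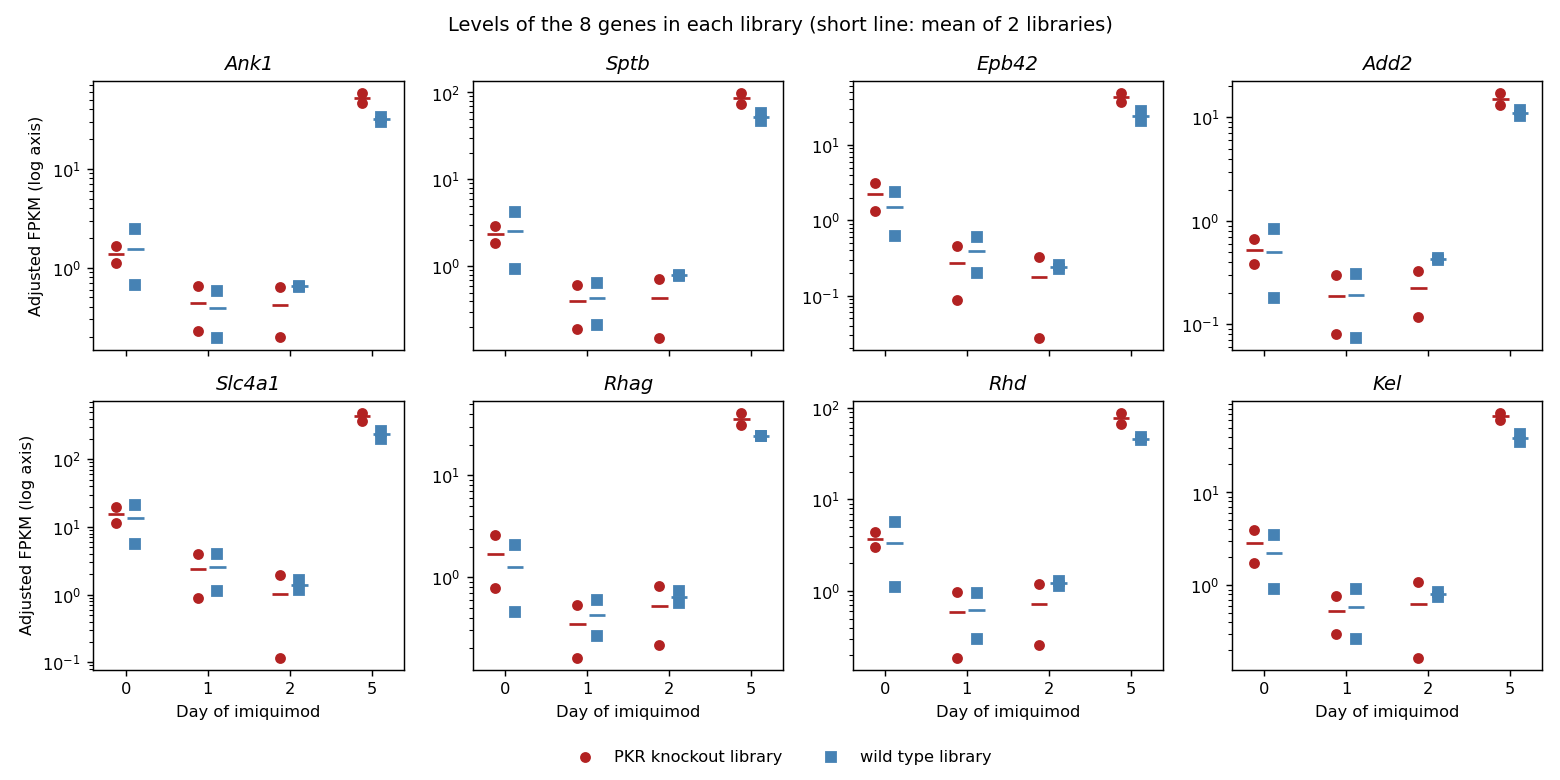
Adjusted FPKM (log axis) of each of the 8 genes by day of imiquimod, 1 panel per gene. Points are libraries, with PKR knockout circles left of wild-type squares, and short lines are means of 2 libraries. Every gene is highest on day 5, with both knockout points above both wild-type points, and the 2 points of a group lie far apart on days 0 and 1 and, in the knockout, on day 2.

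The spectrin skeleton and its anchors come first. Ank1 encodes ankyrin, the adaptor between spectrin and band 3 (kept transcript on mm10 chromosome 8, 23058311 to 23150497, plus strand, 8201 nt). In the knockout, Ank1 stood at 1.11 and 1.66 adjusted FPKM at day 0, 0.229 and 0.655 at day 1, 0.199 and 0.646 at day 2, and 58.0 and 45.8 at day 5. Its wild-type levels were 0.674 and 2.45 at day 0, 0.582 and 0.195 at day 1, 0.648 and 0.644 at day 2, and 33.7 and 30.1 at day 5. Levels on days 1 and 2 lay below both day 0 libraries of the same genotype, and those of day 5 far above them. The rise to day 5 was 5.23 (SE 0.845, adjusted p = 0.00112) in the knockout and 4.34 (SE 0.808, adjusted p = 0.0030) in the wild type. The lower levels of days 1 and 2 passed the test in neither genotype, with adjusted p of 0.0651 to 0.215.

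Sptb encodes the beta spectrin of red cells (chromosome 12, 76596130 to 76710023, minus strand, 8084 nt). Its knockout levels were 1.85 and 2.88 adjusted FPKM at day 0, 0.191 and 0.614 at day 1, 0.150 and 0.709 at day 2, and 97.9 and 73.6 at day 5. Wild-type Sptb stood at 0.924 and 4.22 at day 0, 0.652 and 0.212 at day 1, 0.773 and 0.806 at day 2, and 57.6 and 47.4 at day 5. As for Ank1, no library of day 1 or 2 reached a day 0 library of its genotype. Sptb rose by day 5 with a change of 5.18 (SE 0.976, adjusted p = 0.00262) in the knockout and of 4.34 (SE 0.936, adjusted p = 0.0064) in the wild type. On day 1 it was the member that fell in the wild type, by 2.60 on the log2 scale (SE 0.914, adjusted p = 0.0474). It passed in 9 of 26 alternatives. Leaving out any 1 of 13 libraries ended the call, with adjusted p of 0.0509 to 0.407, and the exceptions were the first day 0 library of the wild type and both libraries of day 2 in the knockout.

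The Sptb locus gave a further measure, since 2 of its 3 transcripts could be set side by side. The shorter transcript of 8084 nt, ENSMUST00000166101.1, held more fragments than the longer one of 10394 nt, ENSMUST00000021458.12, in 16 of 16 libraries. The smallest excess was 2 fragments, in a knockout library of day 1. In FPKM the shorter transcript was 1.33 to 1.56 times the longer one. That ratio was 1.48 and 1.49 in knockout and 1.47 and 1.48 in wild-type libraries of day 5. The counts place a shared fragment in every transcript it overlaps, so the ratio is not one of molecules. Over the 8 genes the tables list 52 transcripts, and both day 5 libraries stood above both day 0 libraries in adjusted FPKM for 51 of 52 in the knockout and 52 of 52 in the wild type. The exception, a retained-intron transcript of Sptb of 532 nt, had 1 and 2 fragments in knockout libraries of day 5 and 0 and 1 in those of day 0.

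Epb42 encodes a membrane protein related to transglutaminases that binds both band 3 and ankyrin (chromosome 2, 121017891 to 121037072, minus strand, 4115 nt). In the knockout, Epb42 had 1.32 and 3.08 adjusted FPKM at day 0, 0.0866 and 0.458 at day 1, 0.0274 and 0.325 at day 2, and 48.3 and 37.1 at day 5. Wild-type libraries held 0.618 and 2.39 at day 0, 0.592 and 0.197 at day 1, 0.227 and 0.257 at day 2, and 27.9 and 20.9 at day 5. The lowest value, 0.0274, rests on 4 fragments in the library labelled KO day 2 replicate 1. Epb42 fell in the knockout on day 1, by 2.96 (SE 0.982, adjusted p = 0.0406), and on day 2, by 3.59 (SE 1.08, adjusted p = 0.0235). Without the library labelled KO day 2 replicate 1 the day 2 change was -2.75 with an adjusted p of 0.118, and without the second day 0 library of the knockout its adjusted p was 0.115. The day 1 call ended on leaving out any 1 of 9 libraries, with adjusted p of 0.057 to 0.188: the second of day 0, both of day 1 and both of day 5 in the knockout, and all of days 2 and 5 in the wild type. The day 2 change of the wild type was -2.65 (SE 1.02, adjusted p = 0.0648). By day 5 the gene had risen by 4.29 (SE 0.862, adjusted p = 0.00369) in the knockout and 3.99 (SE 0.853, adjusted p = 0.00613) in the wild type.

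Add2 encodes beta adducin, which caps actin filaments at the junctions of the spectrin network (chromosome 6, 86028704 to 86124409, plus strand, 8182 nt). By the kept transcripts it was the least abundant member on days 0, 1 and 5 in both genotypes. On day 5 that place depends on the transcript. Its protein-coding transcript of 3119 nt had 37.5 and 28.5 FPKM as deposited in the knockout, against 39.2 and 29.3 for Rhag. In the wild type it had 23.5 and 28.4, against 23.6 and 24.4 for Rhag. Its knockout levels were 0.387 and 0.667 adjusted FPKM at day 0, 0.0813 and 0.298 at day 1, 0.117 and 0.330 at day 2, and 17.1 and 13.2 at day 5. The wild-type libraries gave Add2 at 0.181 and 0.830 at day 0, 0.310 and 0.0739 at day 1, 0.418 and 0.434 at day 2, and 10.3 and 11.8 at day 5. The wild-type libraries of day 1 and those of day 2 each overlapped with day 0, with the day 2 pair between the day 0 pair and above the day 1 pair. The day 2 change was -1.21 (adjusted p = 0.316) in the knockout and -0.29 (SE 0.831, adjusted p = 0.808) in the wild type. Day 5 brought a rise of 4.86 (SE 0.850, adjusted p = 0.00175) in the knockout and 4.41 (SE 0.826, adjusted p = 0.00309) in the wild type.

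Slc4a1 encodes band 3 itself, the chloride and bicarbonate exchanger to which the skeleton is anchored and, in humans, the carrier of Diego antigens (chromosome 11, 102348824 to 102365280, minus strand, 4545 nt). Knockout libraries had 11.4 and 19.6 adjusted FPKM at day 0, 0.888 and 3.98 at day 1, 0.118 and 1.95 at day 2, and 486.5 and 372.9 at day 5. Wild-type libraries had 5.62 and 21.3 at day 0, 4.03 and 1.144 at day 1, 1.16 and 1.66 at day 2, and 265.5 and 201.7 at day 5. Both libraries of day 1 and of day 2 lay below both of day 0 in each genotype, and the widest gap between 2 libraries of a group was on day 2 in the knockout, where the lower value is 19 fragments. On day 2 Slc4a1 fell in the knockout by 3.89 (SE 1.23, adjusted p = 0.0287). Without the library labelled KO day 2 replicate 1 the change was -2.99 (adjusted p = 0.104), and without the second day 0 library of the knockout its adjusted p was 0.0945. The wild-type change on day 2, -3.25 (SE 1.19), missed the threshold with an adjusted p of 0.0537. Slc4a1 had the highest adjusted p of the 8 on day 5: the change was 4.79 (SE 1.23, adjusted p = 0.0126) in the knockout and 4.11 (SE 1.19, adjusted p = 0.0247) in the wild type. Leaving out the first or the second day 0 library of the knockout gave an adjusted p of 0.0764 or 0.0586. In the wild type, leaving out the first day 0 library gave 0.118, and the first or the second of day 5 gave 0.0627 or 0.0592. Over the alternatives Slc4a1 passed in 24 of 26 in the knockout and 22 of 26 in the wild type.

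Rhag, Rhd and Kel carry blood group antigens in humans or belong to the complex that does. Rhag encodes the Rh-associated glycoprotein, which brings Rh proteins to the membrane and conducts ammonia and carbon dioxide (chromosome 17, 40811126 to 40840754, plus strand, 2339 nt). In the knockout, Rhag had 0.784 and 2.58 adjusted FPKM at day 0, 0.163 and 0.535 at day 1, 0.217 and 0.824 at day 2, and 41.1 and 31.0 at day 5. Its wild-type levels were 0.454 and 2.08 at day 0, 0.593 and 0.264 at day 1, 0.724 and 0.564 at day 2, and 24.1 and 24.2 at day 5. Knockout libraries of day 1 lay below those of day 0, while those of day 2, and those of days 1 and 2 in the wild type, overlapped with day 0. The change to day 5 was 4.45 (SE 0.807, adjusted p = 0.00213) in the knockout and 4.20 (SE 0.797, adjusted p = 0.0033) in the wild type.

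Rhd encodes the Rh protein that carries the D antigen in humans; mice have a single Rh gene (chromosome 4, 134864536 to 134896172, plus strand, 1514 nt). Its knockout levels were 2.99 and 4.41 adjusted FPKM at day 0, 0.188 and 0.988 at day 1, 0.261 and 1.19 at day 2, and 87.9 and 66.2 at day 5. Wild-type libraries stood at 1.10 and 5.67 at day 0, 0.948 and 0.298 at day 1, 1.29 and 1.13 at day 2, and 47.3 and 44.8 at day 5. The knockout libraries of days 1 and 2 lay below both of day 0, and in the wild type those of day 1 did but those of day 2 did not. Rhd rose by 4.39 (SE 0.821, adjusted p = 0.00253) to day 5 in the knockout and by 3.73 (SE 0.795, adjusted p = 0.00605) in the wild type, the smallest wild-type change of the 8. The day 1 change was -2.60 (adjusted p = 0.0607) in the knockout and -2.52 (adjusted p = 0.0504) in the wild type.

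Kel encodes the Kell glycoprotein, a zinc endopeptidase of the surface that cleaves endothelin precursors in humans (chromosome 6, 41686330 to 41704339, minus strand, 2530 nt). Knockout libraries held 1.73 and 3.97 adjusted FPKM at day 0, 0.300 and 0.762 at day 1, 0.167 and 1.09 at day 2, and 72.0 and 60.7 at day 5. For Kel, wild-type libraries gave 0.909 and 3.53 at day 0, 0.918 and 0.265 at day 1, 0.751 and 0.859 at day 2, and 42.3 and 35.2 at day 5. On day 1 the knockout pair lay below day 0 and the wild-type pair overlapped with it, and on day 2 both genotypes lay below day 0. The rise to day 5 was 4.55 (SE 0.847, adjusted p = 0.00245) in the knockout and 4.10 (SE 0.830, adjusted p = 0.00467) in the wild type. Of the 8 genes, Kel kept closest to the mean profile of the set over the 8 group means, with a root-mean-square distance of 0.13 on the log2 scale, and Slc4a1 was farthest from it with 0.65.

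The first 2 days gave mostly lower fitted levels and few calls. On day 1, 1 of 8 fell in the knockout (Epb42; 20.9% of all tested genes fell) and 1 of 8 in the wild type (Sptb; 22.7%). At an unadjusted p under 0.05 the counts were 6 in the knockout and 3 in the wild type. The share of all tested genes at that looser threshold is not given here, so neither count shows an excess. Both libraries of day 1 lay below both of day 0 for 8 of 8 genes in the knockout, where 37.2% of all genes did so, and for 5 of 8 in the wild type, where 38.7% did. On day 2, 2 of 8 fell in the knockout (Epb42 and Slc4a1; 25.6% of all genes) and 0 of 8 in the wild type (23.0%) by edgeR. Of those wild-type genes 2 had an unadjusted p under 0.05, DESeq2 called 2, and limma called 2 at a pseudocount of 0.5 and 1 at 0.1. For these counts too the shares of all genes are not given here, so they show no excess. The day 2 libraries lay wholly below those of day 0 for 7 of 8 genes in the knockout, where 38.1% of all did, and for 5 of 8 in the wild type, where 38.3% did. Without the library labelled KO day 2 replicate 1, 0 of 8 fell in the knockout on day 2, with changes of -2.99 to -0.66. Without the second day 0 library of the wild type, 0 of 8 fell on day 1, and the fitted changes ran from -1.12 to 0.042.

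**Figure D2:**
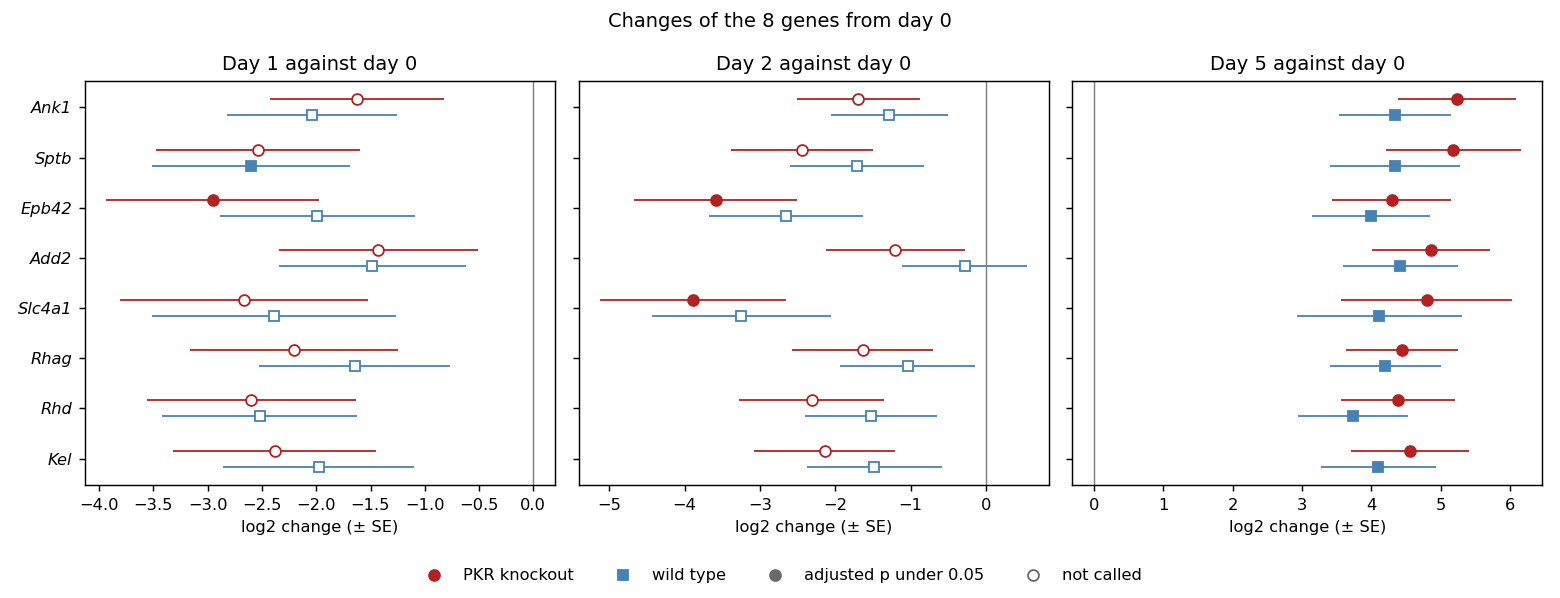
Fitted log2 change from day 0 (horizontal axis, ± SE) of the 8 genes on days 1, 2 and 5, with PKR knockout circles above wild-type squares and filled symbols for adjusted p under 0.05. On day 5 all 16 symbols are filled and lie between 3.73 and 5.23, while on days 1 and 2 all lie below 0 and 4 are filled.

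Set against day 2, which has no library in common with day 0, the rise by day 5 was larger. All 8 genes rose in the knockout, with changes of 6.06 (Add2) to 8.69 (Slc4a1), where 18.4% of all genes rose. Wild-type mice had 8 of 8 risen, by 4.70 (Add2) to 7.36 (Slc4a1), against 16.2% of all. Slc4a1 ranked 23 of 18745 by this change in the knockout and 26 in the wild type. Without the library labelled KO day 2 replicate 1 the knockout changes ran from 5.45 (Rhag) to 7.79 (Slc4a1), and 8 of 8 passed with adjusted p of 0.0055 to 0.0117. Without the second library of that group they ran from 7.01 (Add2) to 11.8 (Slc4a1). In a fit on the knockout libraries of days 2 and 5 alone, 7 of 8 passed, and Slc4a1 had an adjusted p of 0.0841.

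Between the genotypes, 0 of 8 genes differed on any single day by edgeR, DESeq2 or limma, and 0 had an unadjusted p under 0.05 by any of the 3. By edgeR the share of all tested genes that differed was 0.0213% for day 0, 0.187% for day 1, 0.0% for day 2 and 0.00533% for day 5. On day 5 both knockout libraries stood above both wild-type libraries for 8 of 8 genes, where 19.1% of all tested genes did, while 0.0% of all tested genes were called higher. The fitted differences ran from 0.45 (Add2) to 0.88 (Slc4a1), with adjusted p of 0.954 to 0.981. For Slc4a1 the difference of 0.88 had an SE of 1.05, so that changes in either direction lay within its error. The lowest adjusted p of any alternative was 0.0785, for Kel. On day 2, Sptb and Add2 had both knockout libraries below both wild-type libraries, 2 of 8 where 17.7% of all genes did, and one of those libraries is the one labelled KO day 2 replicate 1. The change from day 0 to day 5 was fitted larger in the knockout for 8 of 8 genes, by 0.25 to 0.89, and 0 of 8 of these differences passed, where 0.0% of all genes did, with adjusted p of 0.86 to 0.972.

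Libraries of a group differed from each other in nearly the same way for all 8 genes. On day 0 the second knockout library was higher than the first for 8 of 8, by 1.72-fold at the median, and the second wild-type library was higher for 8 of 8, by 4.21-fold. On day 1 the second knockout library was higher for 8 of 8 by 3.47-fold, and the first wild-type library for 8 of 8 by 3.13-fold. On day 2 the second knockout library was higher for 8 of 8 by 4.64-fold, while the wild-type libraries differed by 1.137-fold at the median absolute difference, 3 genes being higher in the first and 5 in the second. Day 5 had the smallest spread in the knockout, 1.30-fold at the median, and the wild-type libraries differed by 1.17-fold at the median absolute difference. The median absolute log2 difference of all tested genes within a group was only 0.157 to 0.272. The members moved together between pools labelled alike, and the 8 genes are not independent measurements of a day. The day 2 pair of the knockout holds the library labelled KO day 2 replicate 1, and without it that group has no pair. Mpo, a granule enzyme of neutrophil precursors, was also uneven, with knockout levels of 0.728 and 2.64 adjusted FPKM on day 2, against 3.52 and 2.02 at day 0. In the wild type it had 3.00 and 7.65 on day 0. On day 1 it had 1.52 and 6.00 in the knockout and 2.22 and 0.894 in the wild type. Mpo thus went the way of the 8 genes on day 0 in the wild type, on day 1 in both genotypes and on day 2 in the knockout. On day 0 in the knockout it went the other way, with the second library lower. On day 5 it had 18.0 and 17.2 in the knockout, where the first library was higher for 8 of 8 genes. In the wild type it had 19.95 and 23.5 on day 5, while 6 of 8 genes were higher in the first library. Summed late markers of red cell precursors were 56.9 and 307.8 adjusted FPKM on day 2 in the knockout, the first in the library labelled KO day 2 replicate 1.

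**Figure D3:**
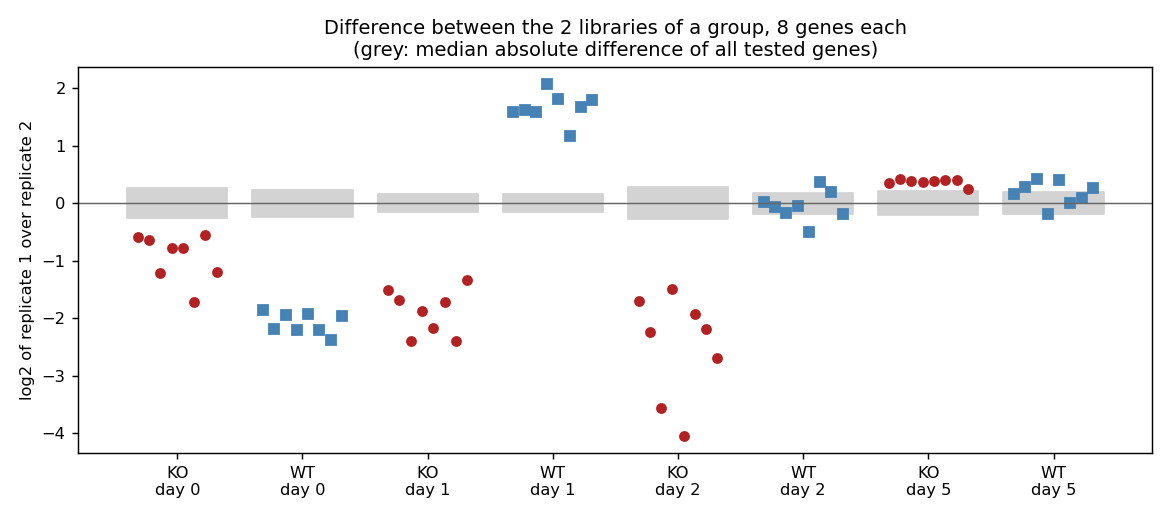
Log2 ratio of replicate 1 over replicate 2 (vertical axis) of the 8 genes in each group, in the order Ank1, Sptb, Epb42, Add2, Slc4a1, Rhag, Rhd and Kel from left to right, with knockout groups (circles) left of wild-type groups (squares) of the same day. Grey bands are the median absolute difference of all tested genes, 0.157 to 0.272, and in 6 of the 8 groups all 8 points lie on one side of 0.

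The proportions among the 8 genes also moved with the day. Slc4a1 was first in every group mean, and Add2 last on days 0, 1 and 5. Order and overlaps here are those of the kept transcripts, and other transcripts give other places. The Sptb transcript of 10394 nt had 62.9 and 47.0 FPKM as deposited on day 5 in the knockout, below Rhd at 83.9 and 62.6. In the wild type it had 38.3 and 32.3, below Rhd at 46.3 and 45.2. By the kept transcripts, the knockout order on day 5 was Slc4a1, Sptb, Rhd, Kel, Ank1, Epb42, Rhag and Add2, and the wild type had the same order. Between neighbours in the knockout, Slc4a1 and Sptb, Kel and Ank1, and Rhag and Add2 did not overlap, and the other pairs did. Within each of the 2 knockout libraries of day 5, all pairs kept this order. Among wild-type neighbours only Epb42 and Rhag overlapped. On day 2, by contrast, Epb42 was last in both genotypes, and Slc4a1 and Rhd overlapped at the top in both. In the knockout this rests largely on the library labelled KO day 2 replicate 1. In the other library of that group Epb42 had 0.325 against 0.330 for Add2, and Slc4a1 had 1.95 against 1.19 for Rhd. On day 0 in the knockout only Slc4a1 at the top and Add2 at the bottom stood clear of their neighbours, and in the wild type every pair of neighbours overlapped. Within each of the 2 wild-type libraries of day 0, though, the order was the same. Slc4a1 came first, at 5.62 and 21.3 against 1.10 and 5.67 for Rhd. Add2 came last, at 0.181 and 0.830 against 0.454 and 2.08 for Rhag.

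Expressed as log2 of the level over the geometric mean of the 8 genes in the same library, which takes out a shift common to all, Slc4a1 stood at 2.65 to 2.82 in the 4 libraries of day 0. It was at 2.16 to 2.43 on day 1, -0.19 to 1.37 on day 2 and 2.49 to 2.79 on day 5. The lowest of these is the library labelled KO day 2 replicate 1, and the other 3 of day 2, at 0.80 to 1.37, still lay below every library of another day. Epb42 was likewise lowest on day 2, with -0.51 to -0.01 on day 0, -1.20 to -0.33 on day 1, -2.30 to -1.21 on day 2 and -0.78 to -0.54 on day 5. Its wild-type values of day 1, -0.41 and -0.33, overlapped with day 0 and lay above day 5. Add2 was highest on day 2, with -2.22 to -2.04 on day 0, -1.75 to -1.30 on day 1, -1.19 to -0.20 on day 2 and -2.04 to -1.60 on day 5. The day 2 values without the library labelled KO day 2 replicate 1 were -1.55 to -1.21 for Epb42 and -1.19 to -0.67 for Add2. As a ratio of adjusted FPKM, Slc4a1 over Add2 was 25.7 to 31.1 on day 0, 10.9 to 15.5 on day 1, 1.006 to 5.90 on day 2 and 17.1 to 28.5 on day 5. Epb42 over Rhag was 1.15 to 1.69 on day 0, 0.533 to 0.998 on day 1, 0.126 to 0.455 on day 2 and 0.865 to 1.20 on day 5. Without the library labelled KO day 2 replicate 1, the lowest day 2 ratios were 2.79 (Slc4a1 over Add2) and 0.314 (Epb42 over Rhag). Both pairs were picked after the values were seen and carry no test, and day 2 levels rest on few fragments.

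**Figure D4:**
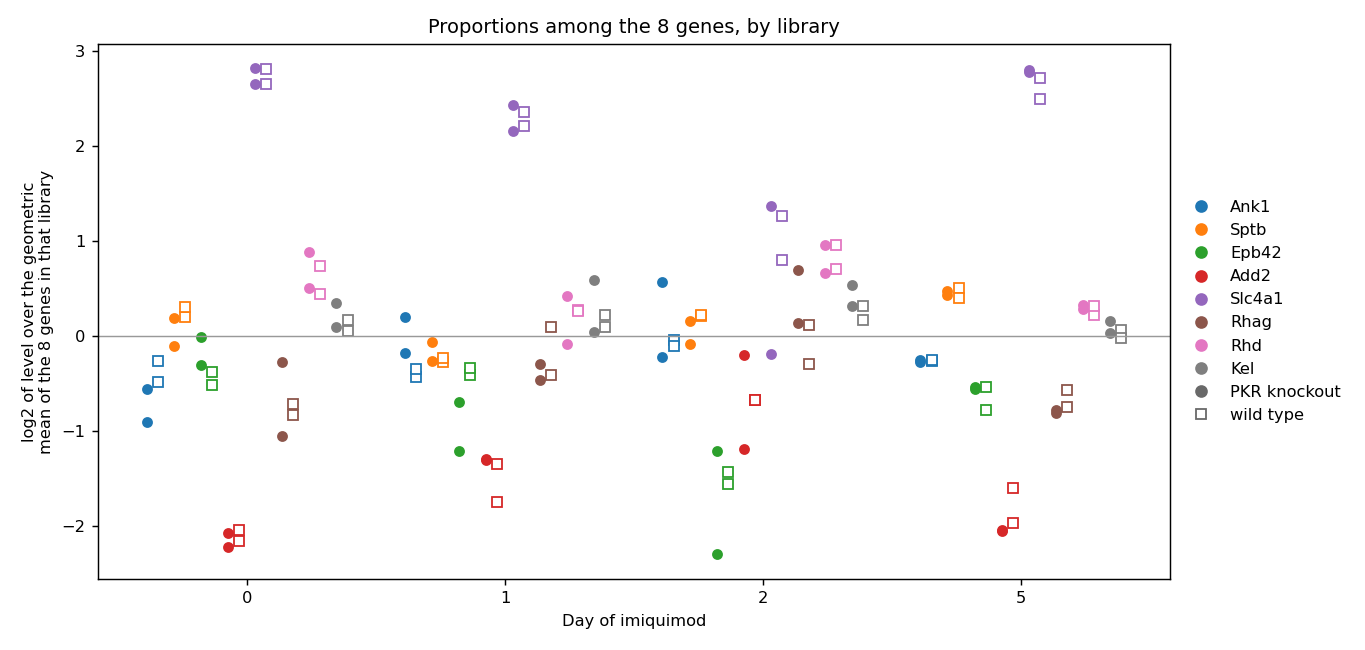
Log2 of the adjusted FPKM of each gene over the geometric mean of the 8 genes in the same library (vertical axis) by day, with knockout libraries as filled circles left of wild-type libraries as open squares and genes by colour. Slc4a1 lies between 2.49 and 2.82 on days 0 and 5 and between -0.19 and 1.37 on day 2, when Epb42 is at its lowest and Add2 at its highest.

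Other genes of the membrane and its skeleton mostly went with the 8. Of 18 such genes, 15 rose and 3 fell by day 5 in the knockout, with a median change of 2.43, and 14 rose and 2 fell in the wild type, with a median of 1.96. Over all tested genes the median was -0.03 in the knockout, where 22.8% rose and 22.1% fell. It was -0.01 in the wild type, where 21.5% rose and 18.0% fell. Dmtn, the actin-bundling protein dematin, rose by 4.80 (adjusted p = 0.00118) in the knockout and 4.18 (adjusted p = 0.00267) in the wild type. The 2 lowest changes were falls: Slc2a1, a glucose transporter, by 1.10 and Add3, a further adducin, by 0.84 in the knockout, and by 1.06 and 0.46 in the wild type.

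Most blood group carriers and enzymes that make such antigens rose too. Of 24 listed genes 23 were tested, and Abo lay below the filter. By day 5, 14 rose and 3 fell in the knockout, with a median change of 2.28. In the wild type 15 rose and 2 fell, with a median of 1.91. Of all tested genes 22.8% rose and 22.1% fell in the knockout, and 21.5% rose and 18.0% fell in the wild type. Smim1, the carrier of the Vel antigen in humans, rose by 5.15 (adjusted p = 9.41e-08) in the knockout and 4.63 (adjusted p = 2.68e-07) in the wild type. Its level stayed low, at 3.73 and 2.68 adjusted FPKM in the knockout and 2.22 and 2.85 in the wild type on day 5. Icam4, an adhesion protein of red cells, rose by 3.89 in the knockout and 4.17 in the wild type. Cd55, which restrains complement on many cell types, fell by 1.22 (adjusted p = 8.23e-05) in the knockout and 0.87 (adjusted p = 0.00168) in the wild type, and Sema7a fell by 0.76 and 1.01.

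Close relatives of the 8 genes that serve other tissues moved in both directions. Of 15, 11 were tested, and genes below the filter included Rhbg, Rhcg and Phex. By day 5, 5 rose and 2 fell in the knockout and 4 rose and 3 fell in the wild type. Median changes were 0.80 in the knockout and 0.50 in the wild type. Of all tested genes 22.8% rose and 22.1% fell in the knockout, and 21.5% rose and 18.0% fell in the wild type. The falls on this list are near those shares. Leaving out 1 library gave 5 risen and 1 or 2 fallen in the knockout, and 2 to 4 risen and 0 to 3 fallen in the wild type, the 0 without the second day 5 library. Sptbn1, the beta spectrin of most other cells, stood at 16.7 and 19.6 adjusted FPKM on day 5 in the knockout, against 25.2 and 25.0 on day 0. Wild-type Sptbn1 levels were 20.8 and 17.3 on day 5, against 24.2 and 34.6 on day 0. It fell by 0.47 (adjusted p = 0.0259) in the knockout and 0.63 (adjusted p = 0.00557) in the wild type, and Sptan1, the matching alpha spectrin, by 0.68 and 0.51. Slc4a3 and Ank3, the highest changes of this list, stayed under 0.06 adjusted FPKM in every day 5 library.

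General markers of red cell precursors moved with the 8 genes on day 5. All 11 early markers, such as the transcription factor Klf1 and the carbonic anhydrase Car2, rose in both genotypes, with a median change of 4.31 in the knockout and 3.87 in the wild type. Klf1 had 72.9 and 47.7 adjusted FPKM on day 5 in the knockout, against 1.98 and 3.35 on day 0, and 39.6 and 46.0 in the wild type, against 1.27 and 3.73. All 16 late markers tested rose too, with medians of 3.66 in the knockout and 3.18 in the wild type, where 22.8% and 21.5% of all genes rose. Ahsp was not analysed here. Their summed level was 20840 to 29270 adjusted FPKM in the knockout and 9859 to 14570 in the wild type on day 5, and on day 0 it was 1557 to 2432 and 779.7 to 1776. On leaving out each library in turn, 11 to 16 late markers rose in each genotype by day 5, with 11 without the first day 0 library of the knockout or, in the wild type, without the first library of day 0 or of day 5. The early count stayed at 11. On day 2, 14 of 16 late markers fell in the knockout, but 3 of 16 without the library labelled KO day 2 replicate 1 or without the second day 0 library. In the wild type 7 of 16 fell, with 2 to 9 on leaving out a library and 2 without the second day 0 library or the first of day 2. Over all tested genes 25.6% fell on day 2 in the knockout and 23.0% in the wild type. Of the 11 early markers, 1 fell and 1 rose on day 2 in each genotype. The part of red cell precursor number in the members' levels was not tested.

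Markers of other spleen cells moved as well. By day 5, 5 of 5 T cell markers and 4 of 5 B cell markers fell in each genotype, and the summed B cell level was 380.0 to 437.7 adjusted FPKM in the knockout and 408.4 to 487.1 in the wild type, against 692.0 to 708.0 and 622.5 to 755.0 on day 0. Of all tested genes, 22.1% fell in the knockout and 18.0% in the wild type. The 6 markers of dividing cells rose on each of days 1, 2 and 5 in both genotypes, where 20.7%, 24.0% and 22.8% of all genes rose in the knockout and 21.9%, 22.3% and 21.5% in the wild type. Of the 6 red pulp macrophage markers, 3 rose and 1 fell by day 5 in each genotype. Neutrophil markers had 2 of 7 higher by day 5 in the knockout and 0 of 7 called in the wild type by edgeR, and 3 of 7 megakaryocyte markers rose in each. The 2 of 7 are near the share of all genes that rose. The 7 neutrophil markers summed to 763.6 to 1110.0 adjusted FPKM in the knockout and 1052 to 1238 in the wild type on day 5, against 934.9 to 1037 and 827.3 to 1536 on day 0. Their lowest sums were on day 2, at 277.9 to 729.4 in the knockout and 216.5 to 359.6 in the wild type. The 277.9 is from the library labelled KO day 2 replicate 1, and the 729.4 of the other library lay near the lower knockout sum of day 5. On leaving out a library these counts ran from 0 to 2 for neutrophil markers in each genotype, 3 to 5 for megakaryocyte markers in the knockout and 1 to 5 in the wild type, and 3 to 4 B cell markers fell in the knockout and 2 to 4 in the wild type. Their part in the members' levels was not tested.

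Over the 8 group means, profiles near to the mean of the 8 genes were looked for among 13955 genes, each profile centred on its own mean, by the root-mean-square distance on the log2 scale. Among the nearest 6 were Hemgn (0.27), a nuclear protein of red cell precursors, Cldn13 (0.28), a claudin, Btnl10 (0.29), a butyrophilin-like protein, Apol8 (0.31), an apolipoprotein L gene, and Tspan8 (0.33), a tetraspanin. Without the library labelled KO day 2 replicate 1, Sox6 (0.31) was among the nearest 6 in place of Tspan8, and the other genes named were again among them. By day 5 these 5 genes rose by 3.89 (Tspan8) to 5.50 (Apol8) in the knockout and by 3.69 (Tspan8) to 4.56 (Apol8) in the wild type.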

How the data were processed

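Libraries were ribosomal RNA-depleted, stranded total RNA, per the labels' protocols. The submitters' processing notes name TopHat, HISAT2, Trimmomatic, bcl2fastq 2.17.1.14 and mm10, with no roles, and for the counting program the sources used here give no name. In all, 142604 transcripts are listed. Per the file headers they hold the fragment count, FPM and FPKM, and each value is per transcript. FPM, as deposited, is the count scaled to the library's total fragments, and the deposited FPKM is FPM per kilobase of transcript. Isoforms share fragments, so 1 transcript was kept per symbol, the protein-coding one with the highest mean count by GENCODE mouse release 21, in which 99.1% of transcript identifiers were found. No filter but edgeR's filterByExpr was applied.

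Counts were tested with edgeR 4.0.16 (robust quasi-likelihood, TMM scaling of total fragments, two-sided, with a mean for each group and 8 residual degrees of freedom) in 16 comparisons. The biological coefficient of variation was 13.1%, from 1 dispersion common to all tested genes. The 8 genes varied more than this between the libraries of several groups, as given above. DESeq2 1.42.0 and limma 3.58.1 on log2 of FPKM plus 0.5 or 0.1 were alternatives, beside other filters, transcript choices, scaling, a replicate term, fits on the compared groups and leaving out each library. The edgeR test of day 5 against day 0 in the wild type was also run on simulated counts, each gene and library drawn independently. These lacked the shifts shared by the 8 genes between libraries, so that run cannot check their calls. P-values measure the spread between pools, and precision at low levels is limited by the fragment number.

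The 8 genes, the gene lists and the tests were chosen with earlier results of these data known. Named beside the 8 genes were Eif2ak2, the 2 highest and 2 lowest wild-type changes to day 5 of a list (a selection of those is described), and the 6 genes nearest in profile. Some genes that this rule names are not reported here. Mpo was named after its values were seen.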

Additional observations from a re-analysis of the deposited data

How the results depend on the processing

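Of the 16 counts of members called, that of day 5 against day 2 in the wild type (8 of 8) and the 8 counts between genotypes (0 of 8) were the same in every alternative run. In the knockout, day 5 against day 2 (8 called) gave 7 in a fit on the compared groups, where Slc4a1 had an adjusted p of 0.0841, and 8 in the other alternatives. Leaving out each library gave ranges of 0 to 3 (knockout) and 0 to 4 (wild type) members called on day 1, 0 to 4 and 0 to 2 on day 2, and 7 to 8 in both genotypes on day 5. In the knockout, day 1 (1 called) gave 6 with DESeq2, 5 with limma at a pseudocount of 0.5, 3 with limma at 0.1, 3 with a filter at FPKM of 2, 0 without a filter and 0 in a fit on the compared groups. Day 2 (2 called) gave 5 with DESeq2 and with limma at either pseudocount, and 1 without a filter or with the compared groups. In the wild type, day 1 (1 called) gave 4 with DESeq2, 3 at FPKM of 2, and 0 without a filter, with limma at 0.1, with the compared groups and with the replicate block. Day 2 (0 called) gave 2 with DESeq2, 2 and 1 with limma at 0.5 and 0.1, and 1 at FPKM of 2 or with the sum of isoforms. Day 5 (8 called) gave 0 with the compared groups. The cause was not tested. The averaged contrast takes all groups and has no such fit. The shares of all tested genes called in these alternatives are not given here. The counts of members by other tools and filters thus cannot be set against the rate of the same run.

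Fitted directions turned for Add2 on day 2 in the wild type with limma at 0.1 (0.021), and without the second day 0 library of the wild type. In that case day 1 gave 0.042 for Add2, and day 2 gave 1.27 for Add2, 0.52 for Rhag and 0.17 for Rhd. Over single libraries left out, these changes ran from -2.79 to 0.042 (Add2, day 1), -0.90 to 1.27 (Add2, day 2), -1.65 to 0.52 (Rhag) and -2.18 to 0.17 (Rhd). None of them was called.

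Replicate numbers are not stated to pair libraries. Across 28 group pairs, the correlation of the replicates' deviations was -0.163 to 0.208 (median 0.0058), and the replicate block changed no count but that of day 1 in the wild type.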
